A study of Apis mellifera with 138 samples.

Results

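The genes described here are 150 genes of the honey bee, Apis mellifera, whose reads were found almost entirely in the abdominal fat body and hardly at all in the brain. They were selected on the libraries of bees fed antag-missense, the missense control antagomir, with a viral share of at most 0.5% of reads. Among genes with a mean of at least 10 CPM in the fat body (read counts scaled to a common total of bee-gene reads), genes were ranked by the log2 ratio of mean fat body to mean brain CPM, with 0.1 CPM added to each. The 150 highest of 6857 ranked genes were taken, out of 12332 bee genes counted, and vitellogenin (Vg) was left out. The contrast of the tissues in antag-missense bees therefore chose these genes, and its values are given as a description.

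Worker bees of 3 colonies, R2, R3 and R42, each headed by a queen inseminated with a single drone, were fed 1000 pmol of antagomir in 30% sucrose as 3-day-olds and frozen 48 h later. The antagomir was either antag-305, an antisense oligonucleotide against ame-miR-305-5p, or antag-missense. Single brains and single fat bodies were sequenced. Each colony made up a trial of its own, and an effect of colony cannot be told apart from one of trial. The fat body libraries used came from 12 antag-305 and 9 antag-missense bees of R2, from 12 and 11 of R3, and from 11 and 10 of R42, and the brain libraries from 12 and 11, 12 and 11, and 11 and 10 bees. The fat body libraries held from 5346264 to 29204597 reads on bee genes and the brain libraries from 5825129 to 49150105, and 6 antag-missense libraries above the viral limit were left out. The brain of antag-305 bee 14 of R42 stood apart, with 8269 CPM on the 150 genes against at most 1150 CPM in the other brains.

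The insect fat body does the work that liver and adipose tissue share in vertebrates. It stores lipid, glycogen and protein, makes the proteins of the hemolymph and releases antimicrobial peptides, and it is threaded with oenocytes, the cells that make the hydrocarbons of the cuticle. In these bees the gut and the sting apparatus had been removed and the fat body was collected still attached to the abdominal cuticle, so epidermis and body wall muscle came with it. In such bulk samples fewer cells of a type and less RNA per cell cannot be told apart.

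Of the 150 genes, 145 are protein coding and 5 are long non-coding RNAs, and 119 carry only a LOC symbol. The named ones fall into a few families. There were 9 odorant-binding protein genes (Obp3, Obp7, Obp14, Obp15, Obp16, Obp17, Obp18, Obp19 and Obp21) and the chemosensory protein genes CSP1 and CSP3, which encode small carriers of hydrophobic molecules and are not limited to sense organs. Of the lists drawn up for fat body functions, the members were the hexamerin Hex70a, a storage protein, A4, an apolipophorin-III-like lipid carrier, the antimicrobial peptide gene Apid1 (apidaecin), juvenile hormone esterase (Jhe), and the cytochrome P450 genes Cyp4g11, CYP6AQ1, Cyp6as5 and LOC724946. Cyp4g11 belongs to the CYP4G family, which in the fruit fly completes hydrocarbon synthesis in oenocytes.

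The selection also held genes whose names point away from fat cells. Melt (melittin) and Mcdp (mast cell degranulating peptide) encode venom peptides. TpnI, TpnT, TpnCI, TpnCIIa and TpnCIIIa encode troponins, the calcium switch of muscle, and CPR14, CPR22, Apd-2 and Apd-3 encode proteins of the cuticle. The description "nearly restricted to the fat body" thus holds for the dissected tissue, not for fat cells. Of the lists of other cell types, 5 of 7 muscle genes, 4 of 25 cuticle genes, 2 of 4 venom genes and 1 of 3 gut genes were members, and none of 17 neuronal genes was. The summed level of the muscle list ran from 1256 to 4439 CPM in fat bodies and from 11.3 to 189 CPM in brains, and that of the cuticle list from 568 to 9118 CPM against 54.4 to 312 CPM. The lists of hemocyte and glial markers matched no gene of the annotation.

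Together the 150 genes, 1.22% of the bee genes, took from 13.6 to 19.1% of a fat body library's reads, with a median of 16.2% over 65 bees. In the brain they took a median of 0.0422% over 67 bees. Among the 65 bees with both tissues, the brain's summed level was a median 0.256% of the same bee's fat body level, and 5.71% in R42 antag-305 bee 14. In that brain 128 of the 150 genes had their highest brain value, and their levels were a median 7.32% of those in the same bee's fat body. Whether fat body RNA was carried into that brain library was not tested.

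At the head of the ranking, Melt on chromosome 4 (12397548 to 12399076, HAv3.1) had a mean of 2438 CPM in antag-missense fat bodies and 0.0754 CPM in the brains, a log2 ratio of 13.76. Its fat body values over all 65 bees ran from 0.118 to 17924 CPM around a median of 152 CPM. LOC100576414 on chromosome 1 (14206165 to 14208836) followed with a ratio of 13.18, and its fat body values ran from 2543 to 7920 CPM with a median of 4664 CPM. These genes head the same ranking with very unlike patterns, Melt ranging from nearly no reads to very many and LOC100576414 staying within a narrow band.

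The next places were held by Obp21 (12.87), LOC724114 (12.56), LOC100576797 (12.48), Obp17 (12.36), Obp14 (12.05), LOC725087 (12.04), Obp3 (12.01) and Obp19 (11.86), as log2 ratios of antag-missense means. The brain median over 67 bees was at most 0.234 CPM for each of the 10, and 13 to 56 of the brains had no read of the gene. Some genes further down had almost no brain reads at all. LOC678674 had 0 reads in the 32 antag-missense brains, out of 461480800 reads. It was at least 4596-fold higher in the pooled fat bodies when 3 counts over the group are taken as the floor. In antag-305 bees, which the selection did not use, it had 1 read in 35 brains and was at least 3457-fold higher. These pooled values rest on some of the bees, since its fat body level ran from 0 to 198 CPM with a median of 3.51 CPM. At the end of the ranking, the genes just inside were LOC726463 (6.42), LOC724560 (6.39) and Cyp6as5 (6.39), and those just outside were LOC552461 (6.36), LOC410894 (6.35) and LOC100578703 (6.32).

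**Figure D1:**
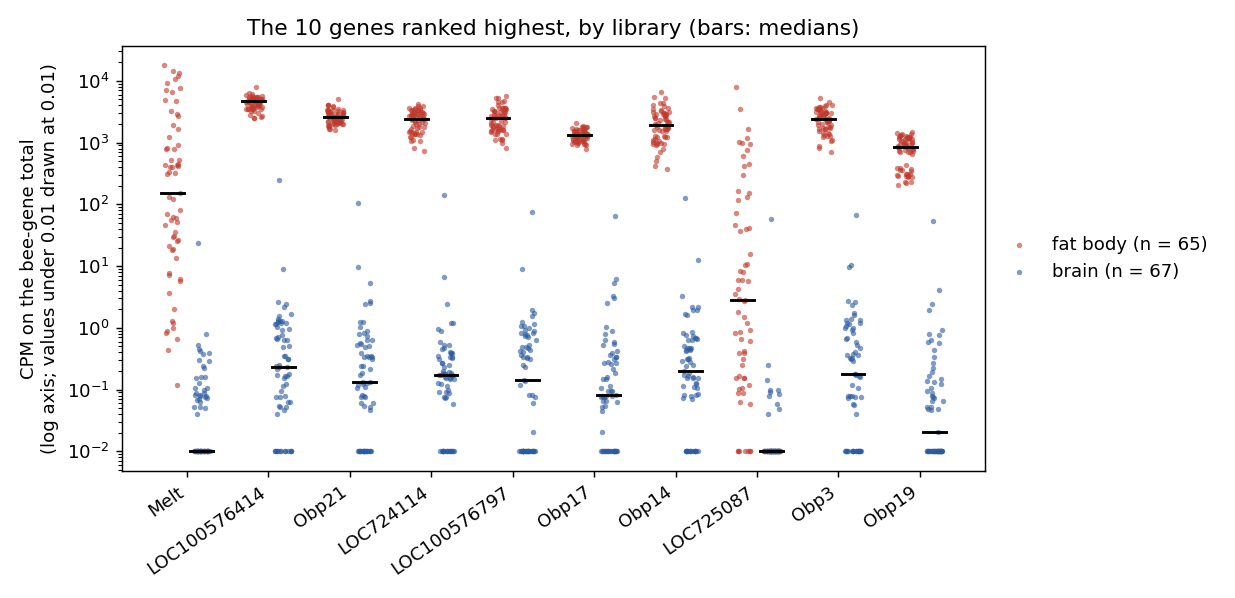
CPM on the bee-gene total (log axis) of the 10 genes ranked highest, in 65 fat bodies (red) and 67 brains (blue), with 1 point per library and bars at the medians. Melt and LOC725087 run over the whole axis in the fat body, the other 8 genes stay above 200 CPM, and the highest brain point is in the R42 antag-305 group for all of them but Melt, where it is in R2 antag-305.

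By reads taken, LOC725387 came first, with 12095 CPM in the lowest fat body, 24608 CPM in the median and 50691 CPM in the highest. CSP3 ran from 6738 to 43589 CPM (median 17435) and Cyp4g11 from 2393 to 46534 CPM (median 19979). LOC725305 had a median of 6625 CPM and A4 one of 5749 CPM. CPM is not corrected for gene length, so these are shares of reads and not an order of transcript levels. For comparison Vg, the yolk precursor made by the fat body, ran from 4.9 to 582 CPM in antag-missense fat bodies, with a median of 93.4 CPM.

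The antag-305 bees were not used in the selection and give the tissue contrast in other animals. In 126 of the 150 genes the lowest of 35 antag-305 fat bodies was above the highest of 35 antag-305 brains, against 13.9% of all 12332 bee genes. Without the brain of R42 bee 14 it was 134 genes, against 14.5%. In a paired edgeR quasi-likelihood test with each bee as a block, all 150 genes were higher in the fat body, with P values adjusted after Benjamini-Hochberg (FDR) below 0.05, against 44.0% of 11739 genes with any read. The log2 fold changes ran from 4.77 (LOC107965279) to 13.03 (LOC724114), with a median of 8.68 against 0.05 over all genes. The genes whose tissues overlapped included Melt, Mcdp, LOC725087, Apid1, Apd-2, CPR14 and Hbg2, an alpha-glucosidase. When the ranking was redone on antag-305 bees, 137 of the 150 genes were among its first 150.

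The genes lay on all 16 chromosomes, with 13 each on chromosomes 1 and 12 and 1 on chromosome 14. Of the 150, 33 had another member as their direct neighbor in gene order, in 13 runs. The longest run was Obp14, Obp15, Obp16, Obp17, Obp18, Obp19 and Obp21 on chromosome 15, from 1924191 to 1961654. Obp7 and Obp3 were neighbors on chromosome 9, and LOC100576769 and Mcdp on chromosome 12. The median gene span of the members was 3214 bases, introns included, against 4195 over the tested genes. The spans of 49 members overlapped that of another gene, 5 of them on the same strand, and the strand setting of the counting was not stated, so the counts of these members are uncertain.

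Levels of these genes differed widely between bees of one colony and treatment. The SD over bees of log2 CPM about the mean of each colony and treatment had a median of 0.664 over the 150 genes, against 0.347 over 6731 other tested genes of at least 10 CPM and 0.41 over all 8844 tested genes. An SD of at least 1, a typical deviation of 2-fold, was found in 27.3% of the members and in 5.3% of those other genes. An SD of at least 2 was found in 14 members, 9.33%, and in 0.342% of the other genes. In antag-305 bees alone, which the selection did not use, the median SD of the members was 0.647. The median of the other genes in those bees alone is not given here, so this value has no like comparison. The selection by mean CPM admits genes that are high in a few bees, and these SDs are given with no test.

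**Figure D2:**
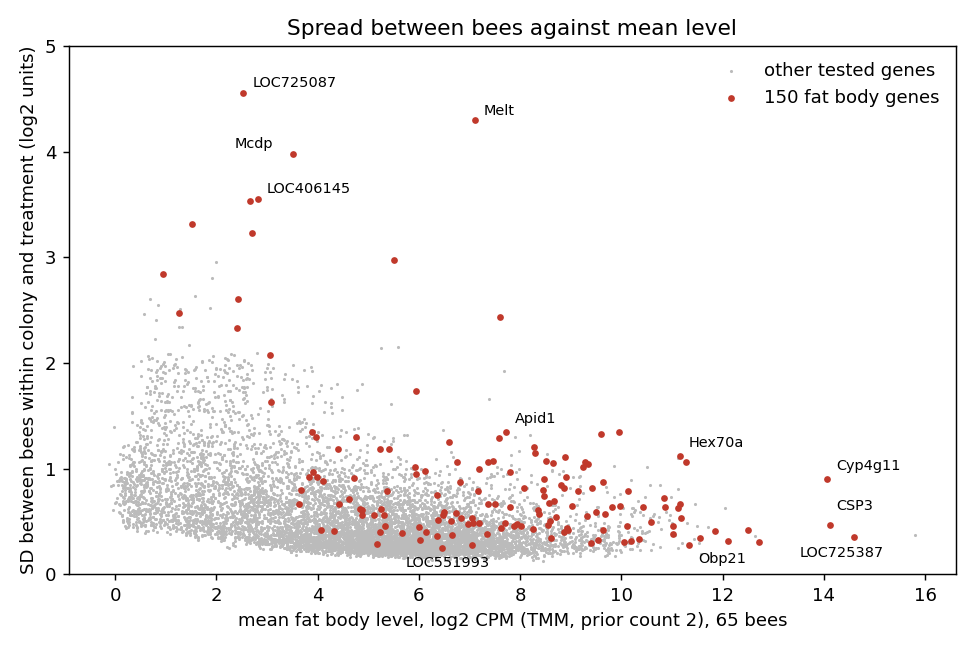
SD between bees within colony and treatment (log2 units) against the mean fat body level (log2 CPM) over 65 bees. The 150 genes (red) run from 0.252 for LOC551993 to 4.56 for LOC725087, and 14 of them lie above 2, against 23 of 6731 other genes of at least 10 CPM (grey, with the less abundant tested genes).

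The largest spreads were those of LOC725087 (SD 4.56), Melt (4.29), Mcdp (3.98) and LOC406145 (3.55). Melt reached 1000 CPM in 17 of 65 fat bodies and was under 10 CPM in 14. The 17 bees comprised 1 of 9 antag-missense and 4 of 12 antag-305 bees of R2, 3 of 11 and 0 of 12 of R3, and 5 of 10 and 4 of 11 of R42, so high and low bees stood in nearly every group. Mcdp on chromosome 12 (6648493 to 6649822) ran from 0 to 1728 CPM with a median of 14.9 CPM.

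Across the 65 bees, the deviations of Mcdp from its group means followed those of Melt with r = 0.98. LOC406145 (r = 0.96), LOC678674 (r = 0.95) and LOC100576769 (r = 0.95) did so too, and no other member reached 0.7, the next being LOC100576444 (r = 0.36). These correlations are descriptions, since the genes share libraries and reads per library. LOC406145 on chromosome 5 (2354864 to 2356029) had 0 to 658 CPM, LOC678674 up to 198 CPM and LOC100576769 up to 505 CPM. The venom genes Apamin and Pla2 had 0 reads in all 65 fat bodies, which allows up to 0.00317 CPM over 945702052 reads, but the span of Apamin lies within that of Mcdp and that of Pla2 overlaps LOC102654165, so their reads may not have been assigned to them. The sting apparatus had been removed, and the part of remaining venom tissue in these levels was not tested.

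LOC725087 on chromosome 13 (10762729 to 10766334) was under 10 CPM in 41 of 65 fat bodies and at least 100 CPM in 16, with a highest value of 7845 CPM and a median of 2.77 CPM. It did not move with Melt (r = 0.24). The members closest to it were LOC724552 (r = 0.88), LOC725842 (r = 0.87) and LOC551805 (r = 0.86), with CSP3 at r = 0.80 among the 7 members of at least 0.7. CSP3, although among the genes with the most reads, thus varied together with a gene that most bees hardly expressed. LOC724199 and LOC727243, whose SDs were 2.97 and 2.47, were unrelated to both, with r of 0.07 and 0.04 with Melt and of 0.03 and 0.06 with LOC725087.

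A broader set varied with Cyp4g11. Its deviations had an r of at least 0.7 with those of 20 members, among them TpnI (r = 0.90), LOC725381 (r = 0.87), LOC409805 (r = 0.87), LOC408395 (r = 0.86), CPR22, TpnCIIIa, CPR14 and Apd-2. Some muscle and cuticle genes thus varied with Cyp4g11 from bee to bee, while others of the same lists followed it less, such as TpnT (r = 0.69), TpnCI (r = 0.54), TpnCIIa (r = 0.19) and Apd-3 (r = 0.17). LOC725387 and its 2 followers, LOC725305 (r = 0.84) and LOC552728 (r = 0.82), went the opposite way, with r of -0.73, -0.57 and -0.63 with Cyp4g11. In all, 31 members had an r of -0.5 or lower with LOC725387. Correlations between genes, here and above, were computed among the members only. These counts therefore have no comparison with other fat body genes, and whether such genes reach these r values as often was not tested. Sequencing depth had an r of 0.19 with Cyp4g11 and -0.11 with LOC725387. How much cuticle and muscle came with each fat body was not recorded in the sources used here, and its part in this pattern was not tested.

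**Figure D3:**
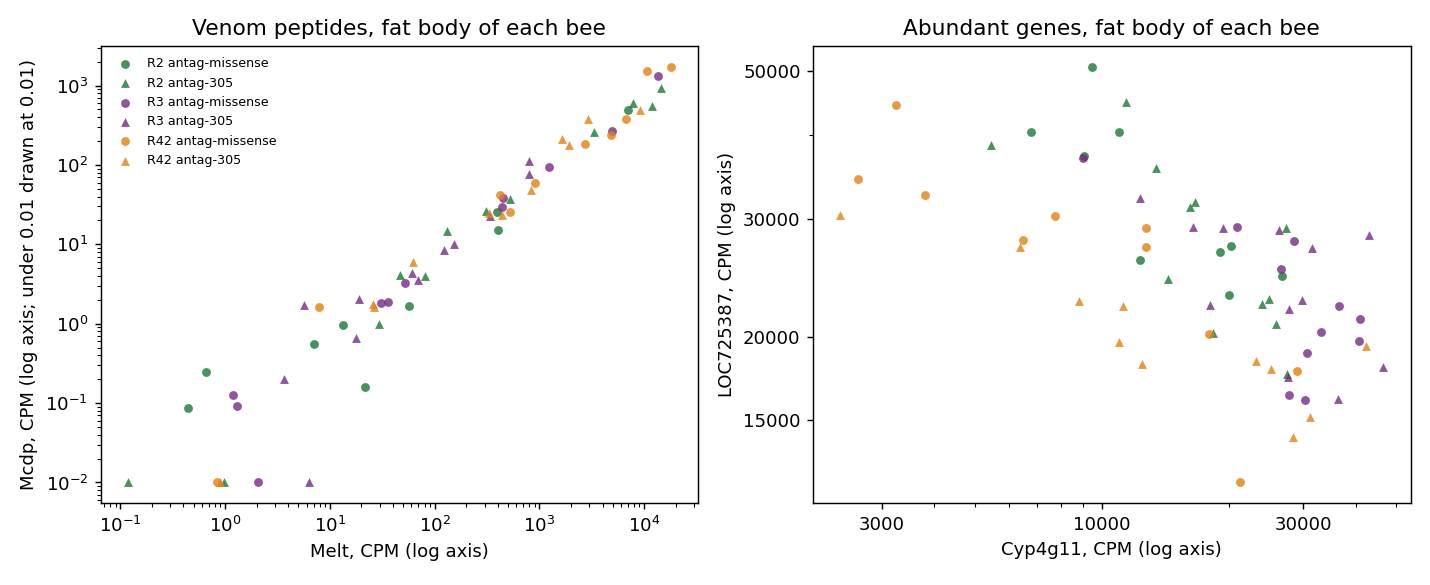
Fat body CPM (log axes) of each of 65 bees, by colony (color) and treatment (circles antag-missense, triangles antag-305): Mcdp against Melt on the left, LOC725387 against Cyp4g11 on the right. Mcdp rises with Melt in bees of all colonies, from 0 to 1728 CPM, while LOC725387 tends to be lower where Cyp4g11 is higher.

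The muscle genes were not one unit. Among the 5 troponin genes the pairwise r of deviations ran from -0.04 to 0.86, with a median of 0.37, and TpnCI had an SD of 0.314 while TpnI had one of 0.922. Hex70a and Jhe, a storage protein and the enzyme that degrades juvenile hormone, varied together (r = 0.85). Sequencing depth had an r of 0.35 with Hex70a, and its part in this was not tested. Hex70a ran from 355 to 9675 CPM over bees (median 2337 CPM) and Jhe from 121 to 1511 CPM (median 589 CPM).

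The steadiest members were LOC551993 (SD 0.252), Obp21 (0.279) and LOC552366 (0.28). LOC551993 ran from 52.1 to 155 CPM over all 65 bees and Obp21 from 1581 to 5086 CPM. An SD under 0.3 was found in 5 members, 3.33%, against 38.2% of the other genes of at least 10 CPM. The selection by near-absence from the brain thus held a few genes of steady fat body level and more of variable level.

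Between colonies, 81 of the 150 members differed at an FDR under 0.05 (54%) in the edgeR F test, against 45.4% of the 8844 tested genes. In antag-missense bees alone it was 51 of 150 members, a larger share than the 15.9% of tested genes. In antag-305 bees alone it was 57 of 148 tested members, a smaller share than the 44.1% of tested genes. Colony took a median 11.9% of a member's variance over bees and 12% of that of the other genes of at least 10 CPM, whereas treatment took 0.996% and 1.06%. The median size of the estimated difference between colonies was larger in the members. It was 0.40 on the log2 scale between R3 and R2, against 0.17 over all tested genes, 0.33 against 0.18 between R42 and R2, and 0.37 against 0.30 between R42 and R3. The members also had the larger SD between bees, with a median of 0.664 against 0.347 in the other genes of at least 10 CPM. The part of that spread in the larger sizes was not tested.

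By direction, 27 members were higher in R3 than in R2 (6.63% of all tested genes were) and 21 were lower (7.23%). In R42, 22 were higher than in R2 (11.8%) and 18 lower (4.08%). Against R3, 26 were higher in R42 (28.4%) and 31 lower (17.3%), which in shares of the members are 17.3% and 20.7%. In antag-missense bees alone 3 and 4 members passed between R42 and R2. The shares of all tested genes for that pair in those bees alone are not given here. The fit of those bees called fewer genes of any kind, 15.9% in the colony F test against 45.4% with both treatments. The members thus did not move as a block between colonies, and the median member difference was 0.02, -0.06 and 0.02 on the log2 scale for these 3 contrasts.

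Obp19 had the clearest difference of a colony. Its fat body level ran from 207 to 426 CPM in 21 bees of R42 (median 296), from 647 to 1370 CPM in 21 bees of R2 (median 895) and from 725 to 1465 CPM in 23 bees of R3 (median 1047). R42 did not overlap either of the others. The log2 fold change was -1.58 (SE 0.0928, FDR 8.81e-22, edgeR) against R2 and -1.75 (SE 0.0919, FDR 3.99e-24) against R3, and colony took 87.3% of the variance, the highest share among the members.

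Of its neighbors on chromosome 15, Obp14 was also lowest in R42. It was lower in R42 than in R2 (-1.39, FDR 2.34e-06) and R3 (-1.08, FDR 4.37e-05), while R3 against R2 did not pass (-0.31, FDR 0.332). Its ranges overlapped, with 371 to 2191 CPM in R42, 1520 to 6563 CPM in R2 and 948 to 4342 CPM in R3. Obp21 (0.57, FDR 8.79e-06) and Obp16 (0.72, FDR 8.82e-05) were higher in R42 than in R2, Obp18 was lower (-0.31, FDR 0.0303), and Obp17 (-0.16) and Obp15 (0.36) did not pass the test. The 7 genes, which lie side by side, thus differed in the sign of their difference between R42 and R2. The pairwise r of their deviations within groups ran from -0.21 to 0.68.

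**Figure D4:**
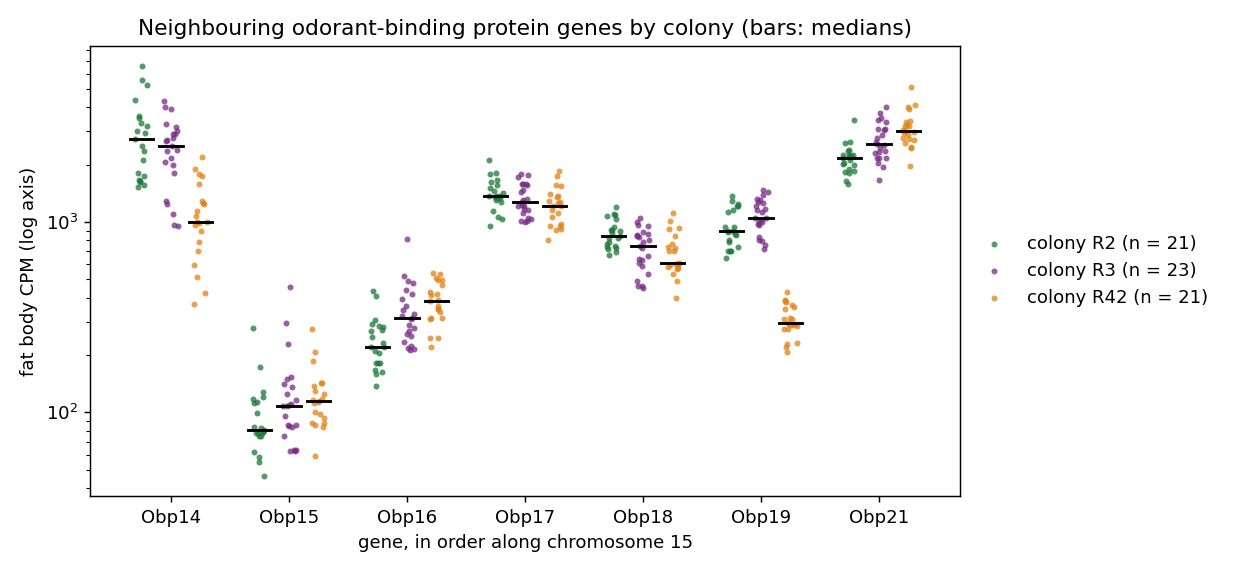
Fat body CPM (log axis) of the 7 neighboring odorant-binding protein genes on chromosome 15, in 21 bees of R2, 23 of R3 and 21 of R42, with bars at the medians. Obp19 in R42 (207 to 426 CPM) is clear of both other colonies, Obp14 is lower in R42 with overlap, and the medians of Obp16 and Obp21 are lowest in R2.

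Apid1, the apidaecin gene on chromosome 16 (4518604 to 4520315), had 27.5 to 215 CPM in R2 (median 94.2), 177 to 3594 CPM in R3 (median 520) and 8.56 to 702 CPM in R42 (median 245). R3 was higher than R2 by 3.25 on the log2 scale (SE 0.412, FDR 3.23e-08), with ranges that overlapped only between 177 and 215 CPM. R42 was higher than R2 by 1.28 (FDR 0.0174) and lower than R3 (-1.97, FDR 7.54e-05). Of the 7 tested genes of the immune list, Apid1 among them, 1 was higher in R3 than in R2 and none lower, against 6.63% and 7.23% of all tested genes. In R42, 2 were higher and 1 lower than in R2 (11.8% and 4.08%), and 1 higher and 3 lower than in R3 (28.4% and 17.3%).

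LOC100576886 went the opposite way, with 49.9 to 189 CPM in R2 and 7.59 to 44.5 CPM in R3, which did not overlap (log2 fold change -1.95, SE 0.235, FDR 9.74e-09). Mrjp9, of the major royal jelly protein family, was lowest in R2, at 194 to 395 CPM, against 256 to 653 CPM in R3 and 325 to 665 CPM in R42 (0.65 and 0.71, FDR 6.94e-06 and 1.45e-06). LOC552366 ran from 65.3 to 130 CPM in R42 and from 135 to 256 CPM in R3, without overlap (-0.93, SE 0.0845, FDR 3.3e-13).

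Among the abundant members, A4 was lower in R3 than in R2 (-0.73, FDR 3.03e-05) and CSP3 too (-0.73, FDR 0.000163), whereas Cyp4g11 was higher (0.76, FDR 0.0354) and was lower in R42 than in R3 (-0.90, FDR 0.00343). LOC725387 was lower in R3 (-0.38, FDR 0.0132) and R42 (-0.32, FDR 0.0401) than in R2. TpnCI was lower in R3 than in R2 (-0.62, FDR 2.79e-06), while TpnT (0.74, FDR 0.031) and TpnCIIIa (0.74, FDR 0.0181) were higher. Melt did not pass the test in any pair of colonies (FDR 0.135 to 0.918), nor did Hex70a (FDR 0.282 to 0.704) or Jhe (FDR 0.307 to 0.921). Of the 19 tested genes of the odorant-binding and chemosensory list, 11 of them members, 4 were higher and 4 lower in R3 than in R2 (6.63% and 7.23% of all tested genes were), 4 higher and 3 lower in R42 than in R2 (11.8% and 4.08%), and 5 higher and 4 lower in R42 than in R3 (28.4% and 17.3%).

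Antag-305 was compared with antag-missense over the 65 fat bodies with colony in the model. None of the 150 members was called by edgeR, against 0.0678% of the tested genes, and none by DESeq2, which called 14 of 8844 genes. At an unadjusted P under 0.05 there were 6 members by edgeR, 3 higher and 3 lower, or 4%, against 9.01% of genes. By DESeq2 there were 11 members, and the share of all genes at that P by DESeq2 is not given here. The median log2 fold change was 0.02 over the members and 0.01 over all tested genes, and 81 members were above 0 and 69 below. The typical size of a fold change was 0.17 with a median SE of 0.16, against 0.10 and 0.10 over all tested genes.

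The smallest P values belonged to Obp19 (log2 fold change 0.21, SE 0.0733, unadjusted P 0.00653, FDR 0.454), LOC727243 (-1.79, SE 0.715, FDR 0.504), LOC724951 (-0.57, SE 0.247, FDR 0.523), LOC409602 (0.49, SE 0.218, FDR 0.529) and LOC551094 (-0.67, SE 0.329, FDR 0.545). Obp19 ran from 207 to 1319 CPM in 30 antag-missense bees (median 819) and from 221 to 1465 CPM in 35 antag-305 bees (median 885). LOC724951 ran from 139 to 2765 CPM (median 852) and from 95 to 2075 CPM (median 510). The treatments overlapped almost wholly in both genes over the pooled colonies, between which Obp19 differed in level. Within colonies the antag-305 and antag-missense medians of Obp19 were 1034 and 858 CPM in R2, 1230 and 1003 CPM in R3, and 309 and 286 CPM in R42. The ranges of the treatments overlapped in each colony. Melt had a fold change of -1.32 with an SE of 1.02, the largest SE of the 150 members.

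The treatment difference varied with the colony in 5 members (3.33%) at an FDR under 0.05 in the interaction test, against 10.5% of the tested genes. They were LOC413590 (FDR 0.0006), LOC410370 (FDR 0.0006), LOC411893 (FDR 0.0141), LOC552592 (FDR 0.017) and LOC724654 (FDR 0.0177). LOC413590 on chromosome 4 (10225195 to 10229269) ran from 41.4 to 120 CPM in 10 antag-missense bees of R42 and from 78.5 to 272 CPM in 11 antag-305 bees (medians 59.8 and 158). Its log2 fold change was 1.30 in R42 (SE 0.221, FDR 0.000542), -0.49 in R2 (SE 0.217) and -0.20 in R3 (SE 0.207). LOC410370 turned the other way, with -1.42 in R42 (SE 0.314, FDR 0.00611), 1.07 in R2 (SE 0.321) and 0.83 in R3 (SE 0.3).

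Within R42, 4 members were higher with antag-305 (4.76% of all tested genes were) and 7 lower (10.5%). Besides LOC413590 the higher ones were LOC411893, LOC552592 and LOC113219305, and besides LOC410370 the lower ones included LOC552728, which follows LOC725387, and the neighbors LOC726463 and LOC726481. In R2 no member and none of the tested genes passed, and edgeR gave 16 members (10.7%) at an unadjusted P under 0.05, against 7.80% of genes. In R3 no member and 4 genes passed (0.0452%), and 13 members (8.67%) were under an unadjusted P of 0.05, against 3.62% of genes. Without the 17 libraries of at least 1000 CPM of Melt the interaction test called 0 members and 1 of 8873 genes. At an unadjusted P under 0.05 it gave 21 members, the same number as with all libraries, where 24.1% of genes were under it. The share of all genes at that P without the 17 libraries is not given here. The part of the Melt level and that of the smaller number of libraries in the fewer calls were not tested.

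**Figure D5:**
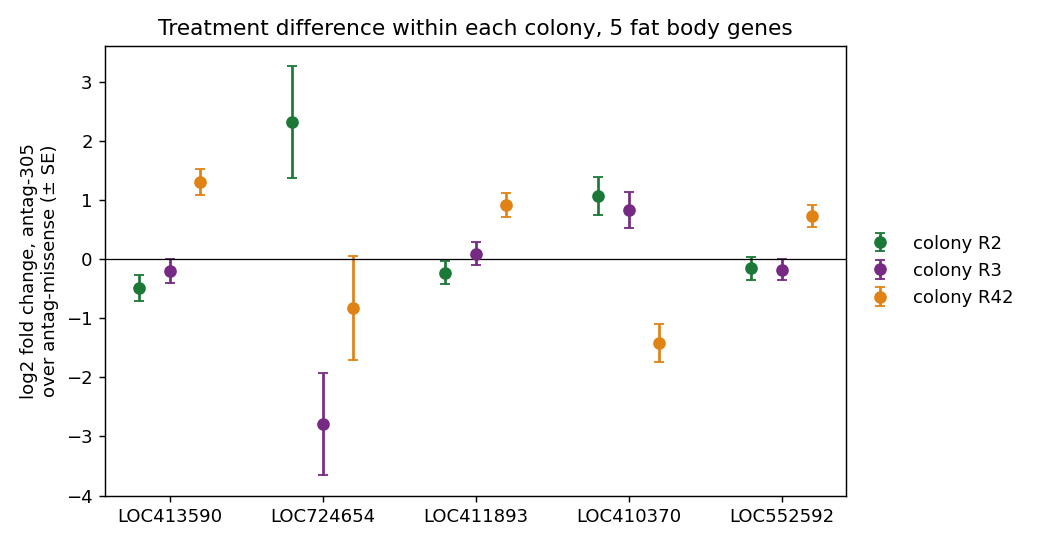
Log2 fold change of antag-305 over antag-missense, with its SE, in each colony for the 5 members called in the interaction test. R42 (orange) is apart from R2 and R3 in LOC413590, LOC411893, LOC410370 and LOC552592, while in LOC724654 R2 and R3 lie farthest apart.

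LOC724654 was called for another pattern, with 2.31 in R2 (SE 0.946) and -2.79 in R3 (SE 0.865). Its values ran from 0.63 to 508 CPM in 11 antag-missense bees of R3 with a median of 4.78 CPM, while the mean was 115 CPM. Over the 3 colonies the treatment difference had 1 sign in 34 members, 22.7%, and in 21.9% of all tested genes.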

How the data were processed

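The authors sequenced stranded mRNA libraries of single brains and fat bodies, aligned the reads to HAv3.1 with STAR 2.7.6a and counted them with featureCounts of Subread 2.0.0. The deposited values are raw counts per gene span, introns included, and on virus genomes. Symbols came from the RefSeq annotation of the same build, which matched 12331 of 12332 genes.

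CPM were computed on the total of bee-gene reads, and 132 of 138 libraries were kept. In edgeR 4.0.16 (R 4.3.3), fat body genes over 1 CPM in at least 30 libraries were fitted after TMM normalization by the legacy quasi-likelihood method on a model of colony plus treatment, and P values were Benjamini-Hochberg adjusted over 8844 genes. The colony test, the pairs of colonies and the interaction used the same filter. All 150 members passed it. The tissue test used the 35 antag-305 bees with both tissues and every gene with a read. SDs used log2 TMM CPM with a prior count of 2. DESeq2 1.42.0 was an alternative. The fat body fit of colony plus treatment was tested on simulated data with known treatment changes, and the other fits were not. Summaries were made in Python 3.11.15. Floors of 3 counts cover counting error only. No libraries of one group had counts alike within sampling noise (665 pairs, smallest chi-square per gene 5.87). Each library is 1 bee's tissue, so replicates are separate animals.

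The members and the gene lists were chosen with earlier results of these data known. The lists were matched on symbols and synonyms of the annotation and on gene descriptions that were at hand for some genes only, and patterns were widened to the spellings found there. Named genes were the 10 ranked highest, the 5 with the most fat body reads, the 4 with the largest and 3 with the smallest SD, the 2 with the smallest P for each pair of colonies, the 5 for treatment and 1 for the interaction, the most abundant member of each list, and 3 on each side of the end of the ranking. Other names illustrate counts, and their values were known when they were picked. Sequences were not used here.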

Additional observations from a re-analysis of the deposited data

Results flagged for a closer look

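In the fat bodies of the 9 antag-missense bees of R2, 1 bee lay apart from the rest in each of 2 genes. LOC727243 was at 117 CPM in bee 17 and at no more than 2.7 CPM in the others, with a gap of 0.577 of the group's range on the log2 scale. Obp19 was at 1247 CPM in bee 26, the next bee being at 900 CPM, with a gap of 0.526 of the range. These were 2 of 72 groups and genes looked at, and chance alone marks about 1 in 20.

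The antag-305 effect differed between colonies, by the edgeR interaction test, in LOC413590 (FDR 0.0006), LOC410370 (FDR 0.0006), LOC411893 (FDR 0.0141), LOC552592 (FDR 0.017) and LOC724654 (FDR 0.0177).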

How the results depend on the processing

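Of 85 alternatives to 12 counts and summaries, 75 stayed within 1.5 times the reported value or 1 SD. From 118 to 150 of the 150 genes were selected again under 10 other forms of the ranking, the fewest with a minimum of 50 CPM. The tissue count stayed at 150 in every alternative. For treatment, the exception was the fit without colony R42, which called 1 member (LOC410370, 0.95, FDR 0.0236) in place of 0. Over all genes that fit called 87 of 8985, in place of 6 of 8844 with all colonies. The numbers of bees do not pair the treatments (26 pairs, median r -0.0892 of deviations, 8 over 0.1), and the fit with a replicate block on them called 0 members. It holds fewer bees, and LOC551094 went from -0.67 to -0.31 in those bees without the block and to 0.06 with it, and LOC727243 from -1.79 to -1.44 and -0.30.

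Among antag-missense libraries alone, 51 members differed between colonies in place of 81, and members higher and lower numbered 11 and 10 for R3 against R2, 3 and 4 for R42 against R2, and 15 higher for R42 against R3. In antag-305 libraries alone they numbered 7 and 10 for R3 against R2. The shares of all tested genes for these pairs in these fits are not given here, so the member counts have no like comparison. The colony F test called 15.9% of tested genes in antag-missense libraries alone and 44.1% in antag-305 libraries alone. With both treatments it called 45.4%. The cause of the changed member counts was not tested. Chosen after seeing the data, leaving out the 17 libraries of at least 1000 CPM of Melt gave 0 members in place of 5 for the interaction. Over all genes it called 1 of 8873, in place of 10.5% of the tested genes. LOC413590 then had an FDR of 0.413 in the edgeR interaction test, and the cause was not tested.

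The members were held to a mean of at least 10 CPM in antag-missense fat bodies. In the brain, values near 0 rest on a few reads. Single-colony differences rest on 9 to 12 bees a group.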

Other observations

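The lists could be matched only in part, since 119 of the 150 genes carry a LOC symbol and 3 had a description, so members of these functions may be missed. The summed level of the 4 matched genes of lipid synthesis and breakdown ran from 164 to 443 CPM in brains against 88.5 to 908 CPM in fat bodies. Among storage proteins, Hex110 ranked at place 197 and HEX70b at place 2177, and Hex110 ran from 0.0925 to 1039 CPM in fat bodies. Of the immune list, PGRP-S3, a peptidoglycan recognition protein, came just after the members at place 155, with a median of 1126 CPM in fat bodies and 12.6 CPM in brains. Def1 (defensin) at place 223 ran from 5.46 to 8129 CPM over the 65 fat bodies around a median of 21 CPM.

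The chemosensory families were split between the tissues. Next to the 11 members, Obp10 ran from 110 to 216 CPM in brains and from 8.68 to 21.6 CPM in fat bodies, and CSP6 from 58.4 to 311 CPM in brains and from 5.11 to 70.8 CPM in fat bodies. Obp4, at place 222, had a median of 94.2 CPM in fat bodies and 2.39 CPM in brains.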
